A study of Drosophila melanogaster with 9 samples.

Results

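Fibroblast growth factor (FGF) signalling of the fly was followed through 7 genes, which are the ligands bnl (branchless), ths (thisbe) and pyr (pyramus), the receptors btl (breathless) and htl (heartless), the adaptor stumps and the feedback inhibitor sty (sprouty). Every probe set that the annotation of the array names for one of these genes was taken, without regard to its values. This gave 9 probe sets of 18769 tested, and 6 of 11982 genes that the array reads under a single symbol. There were 3 probe sets for bnl, 2 for sty and 1 each for btl, htl, ths and pyr. The adaptor stumps, which the receptors need to pass their signal on, had no named probe set in the tables used and was not analysed here. In the RefSeq annotation of the fly, bnl and htl lie on chromosome arm 3R, btl and sty on 3L, and ths and pyr on 2R.

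In the tracheal system, the network of air tubes that carries oxygen to fly tissues, cells that lack oxygen make more of the secreted ligand Bnl, and tracheal cells that carry the receptor Btl grow fine branches towards it. Activated Btl works through the adaptor Stumps and the Ras and MAPK cascade, and Sprouty, which is itself made in response to the signal, restrains that cascade. The other receptor of the family, Htl, binds Ths and Pyr and is best known for the spreading of the mesoderm and for the formation of heart, muscle and glia.

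The flies were adults of the wild type Canton-S stock, 5 to 6 days old, and each sample held 25 males and females used as whole animals. In constant hypoxia (CH) they spent 2.5 hours at 1% O2. In intermittent hypoxia (IH) they spent 2.5 hours with periods of 4 min at 1% O2 that took turns with 4 min at 21% O2. By the methods of the paper, O2 was ramped between these periods, and the fall to 1% O2 lasted longer than either period. The IH flies were thus at 1% O2 for less of the time than these periods alone would give. The controls stayed in normoxia (NC) in the same room for 2.5 hours. Each treatment was read on 3 Affymetrix Drosophila Genome 2.0 arrays, and this number limits the precision. Whether the 3 samples of a treatment were exposed separately is not given in the sources used here, and p-values therefore measure how far these samples differ, which may be technical variation. In whole flies a lower signal from fewer cells of a type and one from less RNA per cell cannot be told apart, and tracheal or heart cells are a small share of the tissue.

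Values are array signals on a linear scale, normalized by the authors, and on each array their mean, after trimming 2% of probe sets from both ends, was 2500. Median signals were 704 to 782 on CH arrays, 594 to 822 on IH arrays and 675 to 771 on NC arrays, and signals under 100 made up 21.6% to 25.8% of each array. Fold changes are differences of mean log2(signal + 16), which understate the change of dim probe sets, and standard errors (SE), 95% intervals and p-values come from limma over all probe sets. A probe set was called at a Benjamini-Hochberg adjusted p under 0.05, a fold change over 1.5 or below 0.67, and the 3 arrays of the first treatment all higher, or all lower, than the mean of the second. The replicate 1 arrays of all treatments shared low signals of ths, described below, and the log2 fold changes that moved by over 1.5 times without these 3 arrays are given with each gene.

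None of the 9 FGF probe sets was called in any of the 3 comparisons. Over all probe sets limma called 0.0213% in CH against NC, 0% in IH against NC and 0.0373% in CH against IH, so the test passed very few probe sets of any kind. At an unadjusted p under 0.05, 2 of the 9 were higher in CH than in NC, where 2.98% of all probe sets were, and 0 were lower, where 1.70% of all were. Those 2 were probe sets of the ligands bnl and pyr. For IH against NC 0 of the 9 were higher and 0 lower at an unadjusted p under 0.05, where 1.36% and 2.23% of all probe sets were. In CH against IH 3 of the 9, again of bnl and pyr, were higher, where 3.55% of all were, and 1, of the receptor btl, was lower, where 1.22% of all were. The median log2 fold change of the 9 was 0.09 in CH against NC (0.01 over all probe sets), -0.21 in IH against NC (-0.02 over all) and 0.21 in CH against IH (0.05 over all).

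**Figure D1:**
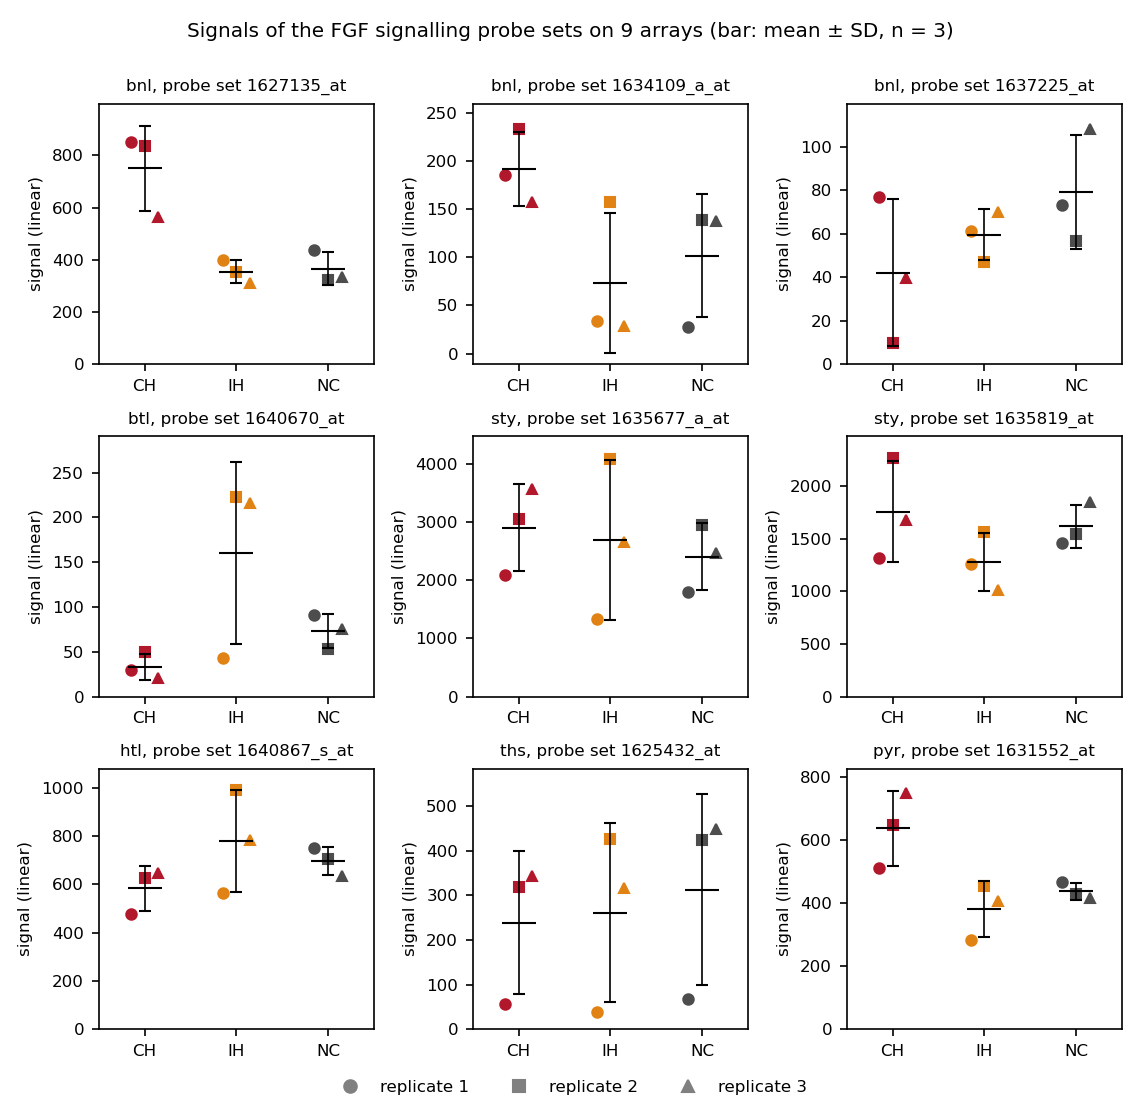
Signals of the 9 FGF probe sets on the 9 arrays. Each panel is a probe set, the vertical axis is the linear array signal (each panel has its own scale), points are arrays with a shape for each replicate number, and bars are the mean ± SD of 3 arrays of CH, IH and NC. The 3 CH arrays of bnl probe set 1627135_at (564 to 851) sit above all IH and NC arrays (311 to 439), and the replicate 1 point of ths is the lowest in every treatment.

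The ligand bnl, the Drosophila FGF that attracts tracheal branches, had the smallest unadjusted p of the 9 in CH against NC. The authors' own list of genes altered in CH, from these same arrays, holds bnl, and this comparison was chosen with that known. Its probe set 1627135_at had signals of 851, 834 and 564 on the CH arrays, 399, 354 and 311 on the IH arrays and 439, 324 and 335 on the NC arrays. All CH arrays lay above all IH and all NC arrays, while the IH and NC arrays overlapped. The means were 750 ± 161 in CH, 355 ± 43.6 in IH and 366 ± 63.4 in NC (SD, n = 3 arrays each), so the order was CH, then NC and IH, which did not differ beyond their spread.

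In the fit, this bnl signal was 1.99-fold higher in CH than in NC, a log2 fold change of 0.99 with a 95% interval of 0.488 to 1.497. Its unadjusted p of 0.00185 stood at rank 65 of the 18769, and its adjusted p was 0.514 by limma, so it did not pass. Against IH the log2 fold change in CH was 1.03 (interval 0.53 to 1.54, unadjusted p = 0.00148, adjusted p = 0.366 by limma). With array weights, which give less weight to arrays that vary more, the difference from IH was called (log2 fold change 1.09, adjusted p = 0.0368 by limma), and that from NC was not, with an adjusted p of 0.142. In CH against IH these weights called 272 of all 18769 probe sets. Leaving out 1 array at a time gave 0.89 to 1.18 against NC and 0.93 to 1.22 against IH, so no single array decided the size. In IH against NC the log2 fold change was -0.04, with an interval of -0.54 to 0.47 that does not hold the size seen in CH, and it was 0.01 without the 3 replicate 1 arrays.

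Of the other bnl probe sets, 1634109_a_at had the same high CH arrays and 1637225_at did not. Probe set 1634109_a_at read 185, 233 and 157.2 in CH, 33.7, 157.0 and 29.2 in IH and 27.7, 139 and 138 in NC. Every CH array was again above every IH and NC array, by a narrow margin over the highest IH array, and the lowest 3 signals, 2 of IH and 1 of NC, were under 100. Its log2 fold change was 1.02 in CH against NC (SE 0.63, unadjusted p = 0.144 by limma), 0.41 without the low NC replicate 1 and 0.43 without the 3 replicate 1 arrays. In CH against IH it was 1.49 (interval 0.04 to 2.94, unadjusted p = 0.0448, adjusted p = 0.999 by limma), with 1.15 to 2.12 when 1 array was left out. Between IH and NC it was -0.47 (interval -1.92 to 0.98), and this value turned on single arrays, with -0.13 without IH replicate 3, -1.10 without IH replicate 2 and -0.80 without the 3 replicate 1 arrays. Array weights called no difference of this probe set. They gave 2.08 in CH against IH (unadjusted p = 0.00105, adjusted p = 0.0568 by limma). In IH against NC they gave -1.40 (unadjusted p = 0.0074, adjusted p = 0.102 by limma), and in CH against NC 0.68 (unadjusted p = 0.172 by limma).

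Probe set 1637225_at of bnl read 77.2, 9.9 and 39.5 in CH, 61.3, 47.2 and 70.3 in IH and 73.4, 56.5 and 108 in NC, so 8 of its 9 signals were under 100. It went the opposite way, with a log2 fold change of -0.86 in CH against NC (interval -1.87 to 0.14, unadjusted p = 0.0835 by limma), but the arrays overlapped. The value was -0.37 without CH replicate 2, the array at 9.9, and -1.32 without the 3 replicate 1 arrays. With the replicate block it was -0.86 (unadjusted p = 0.0432, adjusted p = 0.690 by limma). With array weights it was -1.08 (unadjusted p = 0.0238, adjusted p = 0.431 by limma). These weights gave -0.92 in CH against IH (unadjusted p = 0.0315, adjusted p = 0.160 by limma). In CH against NC and without weights or block, the main fit gave the -0.86 above. The main fit gave -0.31 in IH against NC and -0.55 in CH against IH, each with an SE of 0.44, and the second of these was -0.96 without the 3 replicate 1 arrays. Over the 9 arrays the log2 values of 1627135_at and 1634109_a_at had a correlation of 0.51, and those of 1637225_at had -0.53 and -0.44 with them. These correlations are over arrays that share treatments and are given as a description.

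The ligand pyr, which signals through Htl, showed the same order of treatments as bnl. Its signals were 512, 648 and 749 in CH, 282, 453 and 408 in IH and 467, 428 and 415 in NC. All CH arrays lay above all IH and all NC arrays. The log2 fold change was 0.51 in CH against NC, a fold of 1.43, with unadjusted p = 0.0499 and adjusted p = 1.00 by limma. It was 0.39 with an unadjusted p of 0.163 by limma without CH replicate 3, and 0.70 without the 3 replicate 1 arrays. In CH against IH it was 0.73, a fold of 1.65 (interval 0.21 to 1.24, unadjusted p = 0.0112, adjusted p = 0.737 by limma). In IH against NC it was -0.21 (interval -0.73 to 0.30), near 0 without IH replicate 1, the lowest array of the 9 (-0.02), and 0.03 without the 3 replicate 1 arrays. Array weights gave 0.63 in CH against NC (unadjusted p = 0.00374, adjusted p = 0.225 by limma). In CH against IH they gave 0.73 (unadjusted p = 0.000964, adjusted p = 0.0546 by limma), and pyr was not called.

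For ths, the other ligand of Htl, the replicate number separated the arrays more than the treatment did. Its signals were 55.3, 318 and 344 in CH, 37.6, 427 and 318 in IH and 66.9, 423 and 449 in NC, in the order of replicates 1 to 3. The replicate 1 signal was the lowest of every treatment and under 100 on each. The SE of its comparisons was 1.04 in the fit without the replicate number, against a median of 0.29 over all probe sets. The log2 fold change was -0.33 in CH against NC (interval -2.71 to 2.05), -0.36 in IH against NC and 0.04 in CH against IH. Left out singly, replicate 1 arrays moved the first of these to -1.14 (without NC replicate 1) and to 0.43 (without CH replicate 1). Without all 3 of them the values were -0.38 (unadjusted p = 0.127 by limma), -0.23 and -0.15.

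The receptor btl, which tracheal cells use to read Bnl, was lowest in CH and highest in IH. Its signals were 29.7, 49.6 and 21.2 in CH, 43.4, 222 and 216 in IH and 90.7, 53.2 and 75.8 in NC. All CH arrays lay below all NC arrays, and IH held both high arrays and 1 array within the CH range. With 7 of 9 signals under 100, btl was near the low end of what the array reads. The log2 fold change was -0.87 in CH against NC (interval -2.07 to 0.34, unadjusted p = 0.136 by limma) and 0.76 in IH against NC (interval -0.45 to 1.97, unadjusted p = 0.186 by limma).

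The IH arrays set the size of the btl differences. In IH against NC the log2 fold change of btl was 0.42 without IH replicate 2, 1.42 without IH replicate 1 and 1.56 without the 3 replicate 1 arrays (unadjusted p = 0.00581, adjusted p = 0.531 by limma). In CH against IH it was -1.63, a fold of 0.324 (interval -2.83 to -0.42, unadjusted p = 0.0143, adjusted p = 0.770 by limma), with -1.29 without IH replicate 2 and -2.29 without IH replicate 1. With array weights it was -2.16 and was called (adjusted p = 0.0409 by limma), where these weights called 272 of all 18769 probe sets. In IH against NC these weights gave 1.35 for btl, which was not called (unadjusted p = 0.00479, adjusted p = 0.0882 by limma). Of the listed tracheal markers, mostly genes of cuticle and junctions, 11 of 12 were measured, and trh was not. Whether their signal came from air tubes alone was not tested. The mean log2 level of the 11 was 9.81 to 9.88 in CH, 9.61 to 10.37 in IH and 9.81 to 10.17 in NC. The 2 IH arrays with high btl were the arrays with the highest (replicate 2, 10.37) and the lowest (replicate 3, 9.61) tracheal marker level of the 9. In CH against NC 3 of the 11 markers were above 0, with a median of -0.14, and in IH against NC 4 were, with a median of -0.15. The part of the tracheal share of the tissue in the btl values was not tested.

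The receptor htl did not separate the treatments. Its signals were 478, 625 and 648 in CH, 566, 990 and 786 in IH and 752, 704 and 636 in NC, and the groups overlapped in all comparisons. Its probe set, 1640867_s_at, is of a kind that may also match transcripts of another gene. The log2 fold change was -0.26 in CH against NC (interval -0.79 to 0.28, unadjusted p = 0.297 by limma), 0.13 in IH against NC (interval -0.41 to 0.66) and -0.39 in CH against IH (interval -0.92 to 0.15). Without IH replicate 2, the array at 990, the value in IH against NC was -0.06. Without the 3 replicate 1 arrays the values against NC were -0.07 in CH and 0.39 in IH. Array weights gave -0.33 in CH against IH (unadjusted p = 0.0448, adjusted p = 0.190 by limma). Markers of heart and visceral mesoderm, of which 8 of 10 were measured, had medians of -0.03 in CH and -0.26 in IH against NC, and their part in the htl values was not tested.

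The inhibitor sty, which the signal itself induces, was read by 2 probe sets, and neither separated the treatments. Probe set 1635677_a_at had signals of 2090, 3047 and 3561 in CH, 1335, 4079 and 2659 in IH and 1796, 2946 and 2462 in NC. The spread within IH alone covered every CH and NC array. Its log2 fold change was 0.26 in CH against NC (interval -0.68 to 1.21), 0.05 in IH against NC (interval -0.89 to 1.00) and 0.21 in CH against IH (interval -0.73 to 1.16). Single arrays moved these values, which ran over 0.07 to 0.48, -0.32 to 0.48 and -0.22 to 0.58 when 1 array was left out, the last 2 turning on IH replicates 1 and 2. Without the 3 replicate 1 arrays the values were 0.29 in CH and 0.29 in IH against NC, and 0.00 in CH against IH. The replicate 1 array was the lowest of each treatment here too, as it was for ths.

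Probe set 1635819_at of sty had signals of 1320, 2269 and 1677 in CH, 1262, 1559 and 1009 in IH and 1457, 1547 and 1845 in NC. The log2 fold change was 0.09 in CH against NC (interval -0.48 to 0.66), -0.35 in IH against NC (interval -0.93 to 0.22, unadjusted p = 0.197 by limma) and 0.44 in CH against IH (interval -0.13 to 1.02, unadjusted p = 0.115 by limma). In CH against NC it was -0.11 without CH replicate 2, 0.28 without CH replicate 1 and 0.21 without the 3 replicate 1 arrays. With 1 array left out it was -0.51 to -0.20 in IH against NC and 0.24 to 0.63 in CH against IH, where CH replicate 2 gave the lowest. With 3 arrays a treatment, the fit that gave these intervals could not tell changes within them from 0. Array weights gave -0.66 in IH against NC (unadjusted p = 0.00546, adjusted p = 0.0926 by limma). In CH against IH they gave 0.80 (unadjusted p = 0.00249, adjusted p = 0.0677 by limma), and neither difference was called. The log2 values of the 2 sty probe sets had a correlation of 0.40 over the 9 arrays.

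**Figure D2:**
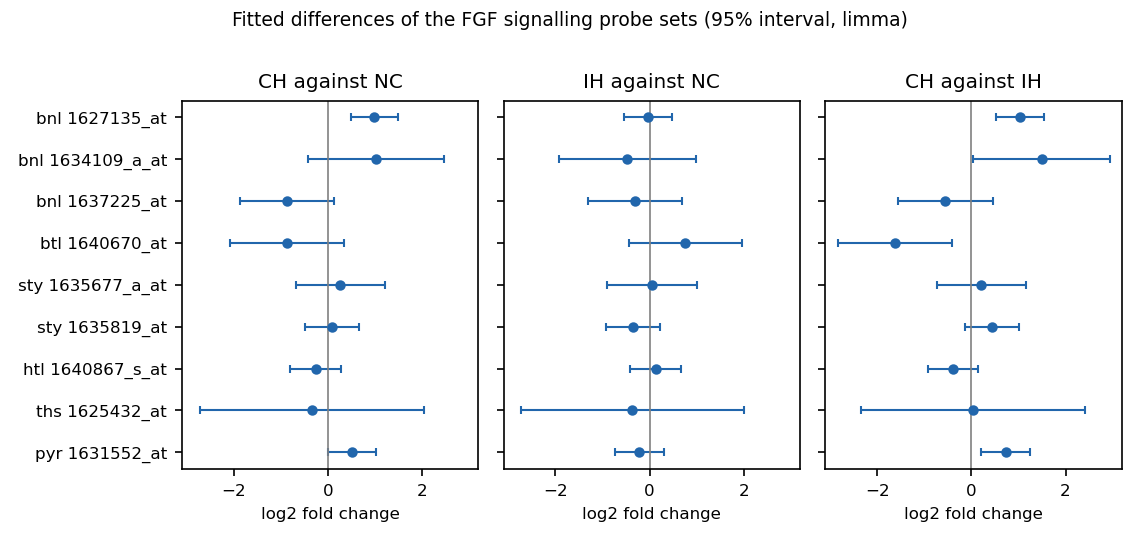
Fitted log2 fold changes of the 9 FGF probe sets for the 3 comparisons of CH, IH and NC. Points are limma estimates, bars are 95% intervals and the vertical line is at 0. In CH against NC the intervals of bnl 1627135_at (0.488 to 1.497) and of pyr lie above 0, in IH against NC every interval crosses 0, and in CH against IH those of 2 bnl probe sets and pyr lie above 0 and that of btl lies below it.

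Counting arrays in place of p-values, 3 of the 9 probe sets (bnl 1627135_at, bnl 1634109_a_at and pyr) had all CH arrays above all NC arrays, where 7.13% of all probe sets did, and 1 (btl) had all CH arrays below, where 5.39% did. Between IH and NC 0 of the 9 were separated in either direction, where 2.63% of all were separated as higher and 4.03% as lower. In CH against IH the same 2 bnl probe sets and pyr were separated as higher, where 5.07% of all were, and 0 as lower, where 2.79% were. The comparisons with NC share the NC arrays, and the 3 bnl probe sets read 1 gene, so these counts are not over separate observations. Log2 fold changes above 0 were seen for 5 of 9 probe sets in CH against NC (51.7% of all probe sets), 3 of 9 in IH against NC (45.3% of all) and 6 of 9 in CH against IH (57.0% of all).

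Among 8384 probe sets with 1 symbol and a mean log2 level above the median, the profiles most like that of bnl 1627135_at over the 9 arrays were those of CG10383 (Pearson correlation 0.954), Sirup (0.954), SCaMC (0.941), CG5966 (0.938) and Bcat (0.927). All of these had their highest mean in CH. The signal of Sirup, an assembly factor of mitochondrial complex II, was 26750 ± 2432 in CH, 15060 ± 3108 in IH and 15260 ± 1781 in NC (SD, n = 3 arrays each), and that of SCaMC, a mitochondrial carrier, was 13220 ± 546 in CH, 9657 ± 292 in IH and 8893 ± 748 in NC. The correlations are over arrays that share treatments, and the highest of 8384 were picked, so they are given as a description.

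**Figure D3:**
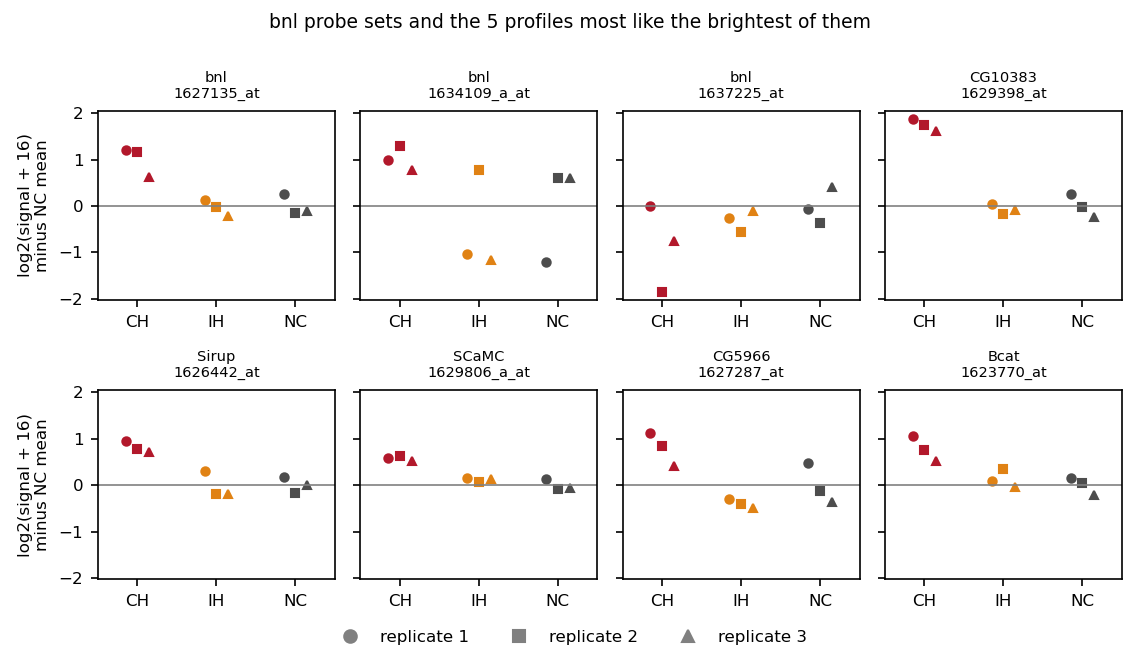
Profiles of the 3 bnl probe sets and of the 5 genes whose profile was most like that of bnl 1627135_at. The vertical axis is log2(signal + 16) minus the mean of the NC arrays, points are the 9 arrays and shapes are replicate numbers. The 5 genes, chosen for this likeness, have high CH arrays, as has bnl 1634109_a_at, while bnl 1637225_at has its lowest point in CH.

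The profiles most like that of btl were those of Cyp6d5 (0.938), CG10550 (0.924), bbc (0.922), CG3706 (0.905) and Ugt37A2 (0.903). All of these had their highest mean in IH and their lowest in CH, as btl had. They were picked for this likeness as the highest of 8384, so the shared order is given as a description. The signal of Ugt37A2, named for a family of glycosyltransferases, was 988 ± 262 in CH, 5158 ± 2823 in IH and 1927 ± 766 in NC (SD, n = 3 arrays each). Cyp6d5, a cytochrome P450, spanned a much smaller range, with 33660 ± 231 in CH, 37000 ± 3559 in IH and 35090 ± 971 in NC.

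Downstream of the receptors, the cascade that carries the FGF signal had list medians near 0. Of 16 listed genes from receptor adaptors to MAPK, 11 were measured, 0 were called and 0 had an unadjusted p under 0.05 by limma in any comparison, and the medians were 0.03 in CH and -0.05 in IH against NC. The value furthest from 0 in CH was that of Dsor1, the MAPK kinase, at 0.24 (SE 0.20), and drk, the adaptor that links receptors to Sos, had 0.14 (SE 0.18). Genes that restrain Ras and MAPK, with 9 of 12 measured, had medians of -0.08 in CH and -0.09 in IH, with 0 at an unadjusted p under 0.05. Among them aos, a secreted inhibitor of the EGF receptor, had -0.23 (SE 0.19) in CH, and Nf1, a Ras GTPase-activating protein, had -0.29 (SE 0.22) in IH. Ras85D, Raf and rl, the core of the cascade, and Spred were not analysed here.

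Heparan sulfate chains hold FGFs at the cell surface and help them bind their receptors. Of 18 genes for these chains and their core proteins 15 were measured, with 0 called. Of the 15, 1, Hs3st-B, was higher in CH than in NC at an unadjusted p under 0.05 by limma, where 2.98% of all probe sets were. This sulfotransferase had signals of 174 ± 93.8 in CH, 153 ± 115 in IH and 52.5 ± 25.9 in NC (SD, n = 3 arrays each), with log2 fold changes of 1.43 in CH (SE 0.59, unadjusted p = 0.0399, adjusted p = 1.00 by limma) and 1.13 in IH (SE 0.59, unadjusted p = 0.0894 by limma). The list as a whole was not higher, with 5 of 15 above 0 in CH and 4 of 15 in IH, and medians of -0.13 and -0.17. Its mean log2 level was 10.87 to 10.90 on IH arrays and 10.92 to 10.94 on NC arrays. Every IH array was thus below every NC array, by a narrow margin. The CH arrays, at 10.85 to 11.06, overlapped both. Sdc, the syndecan core protein, was at -0.23 (SE 0.18) in CH and -0.21 (SE 0.18) in IH.

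Of 10 nuclear factors that act on FGF targets or in tracheal fate, 8 were measured and 0 were called. The mean log2 level of these 8 was 9.33 to 9.58 on CH arrays, 9.36 to 9.74 on IH arrays and 9.64 to 9.82 on NC arrays, so all CH arrays were below all NC arrays, while the IH arrays overlapped both. The HIF list was likewise apart from NC in CH and IH, the Notch list in CH and the heparan sulfate list in IH, as given with each. Among the 8, the largest values were those of rib (ribbon), which tracheal cells need to migrate, with signals of 104 ± 25.3 in CH, 91.2 ± 68.0 in IH and 234 ± 52.4 in NC (SD, n = 3 arrays each). Its log2 fold change was -1.49 in IH (SE 0.54, unadjusted p = 0.0248, adjusted p = 1.00 by limma) and -1.06 in CH (SE 0.54, unadjusted p = 0.0868 by limma), and the arrays did not overlap with NC in either. Of all probe sets, 4.03% in IH and 5.39% in CH were likewise lower than NC without overlap. With array weights rib was called in IH against NC (log2 fold change -2.58, adjusted p = 0.0443 by limma), where these weights called 159 of all 18769 probe sets. The value of kni (knirps), a factor of tracheal branch identity, was -0.50 in CH (SE 0.24, unadjusted p = 0.0740 by limma). The median of the list turned on single arrays. It was -0.15 in CH, and -0.30 without NC replicate 1, and it was 0.01 in IH, and -0.26 without IH replicate 2. When the dimmest 40% of probe sets, rib among them, were left out it was 0.03 in CH. The factors pnt and trh were not analysed here.

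Other receptor tyrosine kinases and their ligands, with 16 of 19 measured, had medians of -0.03 in CH and -0.07 in IH and 0 called. InR, the insulin receptor, had signals of 3683 ± 443 in CH, 2485 ± 267 in IH and 2779 ± 236 in NC (SD, n = 3 arrays each), with a log2 fold change of 0.40 in CH (SE 0.17, unadjusted p = 0.0466 by limma). Krn, an EGF receptor ligand, and Pvr, the receptor related to vertebrate PDGF and VEGF receptors, were at 0.35 (SE 0.17) and 0.32 (SE 0.17) in CH. The list median in CH turned on 1 array and was 0.18 without CH replicate 1.

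The choice of the tracheal tip cell uses Notch signalling, and 5 of 10 listed genes of it were measured, with 0 called. The glycosyltransferase fng (fringe) had signals of 3882 ± 139 in CH, 2728 ± 163 in IH and 2653 ± 386 in NC (SD, n = 3 arrays each), a log2 fold change of 0.56 in CH against NC (SE 0.16, unadjusted p = 0.00822, adjusted p = 0.726 by limma). The ubiquitin ligase neur was at -0.39 in IH (SE 0.16, unadjusted p = 0.0430 by limma). The mean log2 level of the 5 was 10.61 to 10.71 on CH arrays, 10.26 to 10.56 on IH arrays and 10.47 to 10.58 on NC arrays. Every CH array was thus above every NC array. Median values of the list were 0.04 in CH and -0.04 in IH. The listed genes N, Dl, Ser, Su(H) and mib1 were not analysed here, so these medians do not cover the receptor or its ligands.

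The list of oxygen-sensing HIF genes and HIF targets, which includes known regulators of bnl, was the list with the highest median in CH. Of 10 listed 6 were measured, with a median log2 fold change of 0.48 in CH, 0.15 in IH and 0.38 in CH against IH, and 0 called. Of these 6, 3 were higher in CH than in NC at an unadjusted p under 0.05 by limma, where 2.98% of all probe sets were. Their mean log2 level was 12.76 to 13.07 on CH arrays, 12.50 to 12.57 on IH arrays and 12.38 to 12.49 on NC arrays. Every CH array and every IH array was thus above every NC array. The smallest p of the list was that of ImpL2, a secreted binder of insulin-like peptides, with 23880 ± 4592 in CH, 12840 ± 1206 in IH and 10230 ± 1086 in NC (SD, n = 3 arrays each) and a log2 fold change of 1.21 in CH against NC (SE 0.19, unadjusted p = 0.000236, adjusted p = 0.184 by limma). The hypoxia-induced gene scyl, a restraint on TOR signalling, had 0.86 (SE 0.37, unadjusted p = 0.0473 by limma). The prolyl hydroxylase Hph, which marks HIF alpha for degradation, shared the order of bnl, with 23930 ± 871 in CH, 12730 ± 2468 in IH and 15580 ± 1777 in NC (SD, n = 3 arrays each). Its log2 fold change was 0.62 in CH against NC (SE 0.19, unadjusted p = 0.0103, adjusted p = 0.752 by limma). In IH against NC it was -0.30 (SE 0.19), and in CH against IH 0.93 (SE 0.19, unadjusted p = 0.00108, adjusted p = 0.302 by limma). The HIF alpha subunit sima was at 0.34 (SE 0.21, unadjusted p = 0.147 by limma) in CH against NC. In the same comparison tgo was at -0.001 (SE 0.24) and Vhl at 0.14 (SE 0.17). The listed genes chrb, ImpL3, Thor and h were not analysed here.

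**Figure D4:**
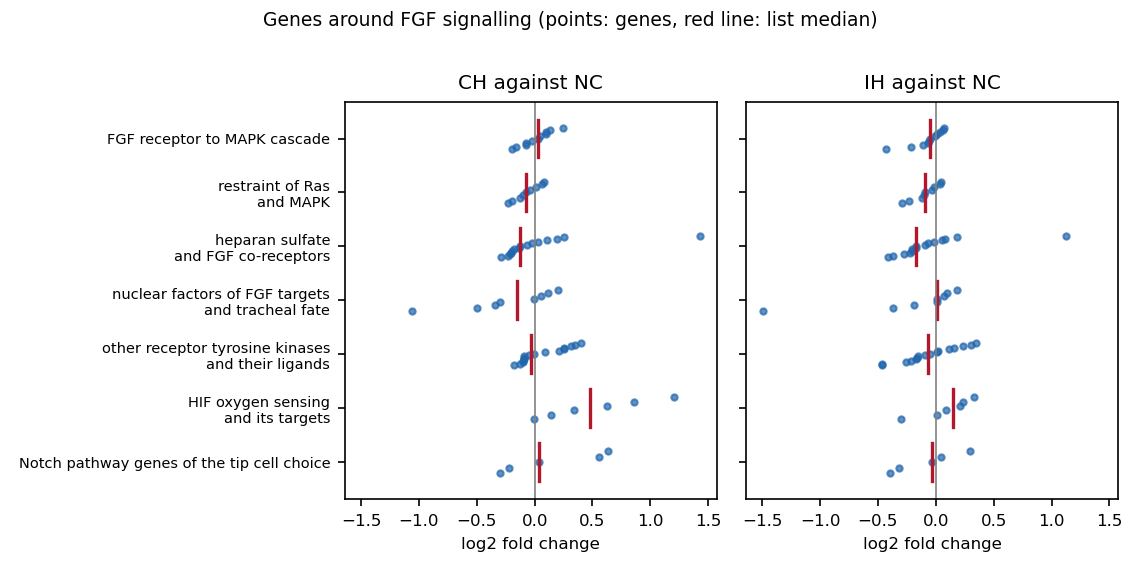
Log2 fold changes of the measured genes of 7 lists around FGF signalling, in CH against NC and in IH against NC. Points are genes, the red line is the median of a list and the grey line is at 0. The HIF list has the highest median in CH (0.48), Hs3st-B is the point furthest to the right among heparan sulfate genes (1.43 in CH) and rib is the point furthest to the left among nuclear factors (-1.49 in IH).

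Markers of other tissues were read on the same arrays. In CH against NC the median log2 fold change was 0.29 for 10 testis markers, 0.26 for 10 male accessory gland markers and 0.19 for 11 ovary and eggshell markers, and it was -0.06 for 8 neuron markers and -0.17 for 7 fat body markers. In IH against NC the medians were 0.19 for the ovary and eggshell markers and -0.19 for the neuron markers. The mean log2 level of the accessory gland markers was 13.52 to 13.83 on CH arrays, 13.03 to 13.62 on IH arrays and 13.28 to 13.49 on NC arrays, so it was higher on every CH array than on every NC array, as were the signals of pyr and of 2 of the 3 bnl probe sets. The part of these differences in the bnl and pyr values was not tested.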

How the data were processed

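The deposited table holds linear intensities, with 1 value for each probe set on each of 9 arrays. The authors normalized them with the Bioconductor affy software, with options not given in the sources used here. No per-sample column was left unused (0). Of 18952 probe sets, 183 Affymetrix controls were left out. Platform annotation gave 13647 probe sets 1 symbol, 402 several and 4720 none here, and RefSeq listed 12449 of 12551 gene identifiers. Group means of log2(signal + 16) over all 9 arrays were fitted with limma 3.58.1 (lmFit, eBayes, prior degrees of freedom 2.19) in R 4.3.3, in place of the VAMPIRE suite of the methods, with no block and Benjamini-Hochberg adjustment over 18769 probe sets. The fit was checked on simulated data. Named genes are all members, of each pathway list the up to 3 genes of smallest p in CH or IH against NC, and the 5 profiles most like bnl and btl. Values of tgo and Vhl of the HIF list are given in addition. A gene with several probe sets is represented by the one with the highest mean, except for the members. Members and lists were chosen with earlier results of these data known. The alternatives were other fits, pseudocounts (1 and 50), normalizations, filters and arrays left out.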

Additional observations from a re-analysis of the deposited data

How the results depend on the processing

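Of 27 differences of single FGF probe sets, 2 passed the threshold in any of 501 alternative values, both with array weights in CH against IH, so that the number of FGF probe sets called there was 2 in place of 0. Array weights also called 34 probe sets in CH against NC, 159 in IH against NC and 272 in CH against IH over the whole array, where equal weights called 4, 0 and 7; the cause was not tested. The other alternatives called 0 to 17, 0 and 0 to 12. Replicate numbers were not taken as pairs, since the labels do not say what they mark and same-numbered arrays correlated at 0.0918 to 0.322 in their deviations from treatment means (other pairs at -0.212 to 0.0833). All 9 arrays were closest to their own number. With the replicate block, bnl 1627135_at kept a log2 fold change of 0.99 in CH against NC (adjusted p = 0.280 by limma), 0 FGF probe sets were called, and 1, 0 and 0 probe sets were called over the array. For ths, whose signals followed the replicate number, the replicate block left log2 fold changes of -0.33 in CH and -0.36 in IH against NC with an unadjusted p of 0.129 and 0.0985 by limma (0.759 and 0.733 without it), and adjusted p = 0.815 and 0.956. Leaving out the dimmest 40% of probe sets removed 4 of the 9 FGF probe sets, among them btl and ths, which have no value there. Leaving out the 3 replicate 1 arrays was chosen after seeing the data. Of 399 alternative values of list medians, 30 moved by over 1 SD, and of the pathway genes array weights also called rib, InR, Hph and ImpL2 in 1 or 2 comparisons, and 2 other settings called ImpL2 in CH against NC (adjusted p = 0.0167 and 0.0468 by limma). Signals under 100 limit btl, ths and 2 of the 3 bnl probe sets.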
